A study of Mus musculus with 2 samples.

Results

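The Egr factors and the inhibitors that restrain the ERK pathway from within were compared between 4T1-3R_L cells and the 4T1 cells they derive from. The set holds 10 mouse genes, the transcription factors Egr1, Egr2 and Egr3, the phosphatases Dusp1, Dusp4, Dusp5 and Dusp6, and the Sprouty inhibitors Spry1, Spry2 and Spry4. Members were taken by gene name, with earlier results of these data known, as every probe set annotated with exactly 1 of these symbols. This gave 16 probe sets for the 10 genes, of 34945 probe sets for 18193 genes with a single symbol on the array.

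4T1 is a mouse mammary carcinoma line from a BALB/c animal that spreads to distant organs when grown in mice. One array held RNA from the 4T1 parental cells and the other RNA from cultured 4T1-3R_L cells (4T1-3R liver metastatic cells), which were isolated from liver metastases in an animal experiment. No treatment or genetic change is given for either population. The sample titles do not say what 3R stands for, and the parental title lacks it. A difference behind that name cannot be told apart here from the isolation from liver. The sources used here do not state the medium, serum or cell density, nor whether 4T1-3R_L is a clone or a pooled population. Each group has 1 array, so no value has a replicate spread, no test was run, and every difference below describes these 2 arrays.

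ERK is the last kinase of a cascade that runs from growth factor receptors through RAS, RAF and MEK. Active ERK phosphorylates ETS-family partners of serum response factor, and genes with serum response elements, among them the Egr genes, are then transcribed within minutes. ERK also switches on its own brakes. Dual specificity phosphatases remove the activating phosphates from ERK and related MAP kinases, and Sprouty proteins dampen the signal between the receptor and RAF. Transcripts of these genes are therefore often read as a record of ERK output in carcinoma cells.

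Promoter windows from RefSeq (GRCm38.p6, 250 bases before to 50 after each start site) were matched for 6 of the 10 members, namely Egr2, Dusp1, Dusp5, Dusp6, Spry1 and Spry2, in 10 windows. They were searched on both strands for the CArG box, which serum response factor binds, the cAMP response element TGACGTCA, the EGR site GCGTGGGCG and the AP-1 site TGANTCA. The CArG box was found in 5 of the 10 windows, against 1.63% of all 32851 promoter windows. These 5 belong to 2 members, Egr2 and Dusp5, and several of the Egr2 windows share the same box. The cAMP response element was found in 1 of the 10 windows, that of Dusp1, against 1.79% of all windows. The EGR site (0.612% of windows) and the AP-1 site (7.81%) matched none of these 10 windows, and no matches overlapped. The stretches with matches are shown because serum response factor and cAMP-regulated factors are textbook regulators of immediate early genes. Capitals mark the CArG boxes in Egr2 and Dusp5 and the cAMP response element in Dusp1, and each is a match of letters and no more. The Egr2 stretches are 30 bases around each box and the Dusp sequences are the 250 bases before the start site.
Egr2 first box, chr10:67537484-67537513, plus strand: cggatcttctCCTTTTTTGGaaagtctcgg
Egr2 second box, chr10:67537787-67537816, plus strand: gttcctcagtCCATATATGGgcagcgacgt
Dusp5, chr19:53528895-53529144, plus strand: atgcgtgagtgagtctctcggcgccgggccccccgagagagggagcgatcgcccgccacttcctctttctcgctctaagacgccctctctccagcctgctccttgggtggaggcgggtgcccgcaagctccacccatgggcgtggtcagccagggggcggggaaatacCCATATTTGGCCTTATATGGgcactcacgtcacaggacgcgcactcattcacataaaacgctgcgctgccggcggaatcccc
Dusp1, chr17:26508473-26508722, minus strand: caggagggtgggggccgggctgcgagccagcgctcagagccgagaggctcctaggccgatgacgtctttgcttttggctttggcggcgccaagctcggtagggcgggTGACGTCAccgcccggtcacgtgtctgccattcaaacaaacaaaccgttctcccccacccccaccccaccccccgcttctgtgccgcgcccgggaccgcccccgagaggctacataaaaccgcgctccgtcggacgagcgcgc
The CArG boxes of Dusp5 lie end to end, starting 82 and 72 bases before the start site. The first Egr2 box starts 72 bases before the start site of its window, and the second starts 72, 73 or 133 bases before the start sites of the 3 windows that hold it. The cAMP response element of Dusp1 starts 143 bases before its start site.

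Signals are MAS5 intensities on a linear scale, already scaled to a common level on both arrays. Signals under 90.6, the median of all signals, are called under the floor, which stands in for the background because no detection calls were used. A gene is represented by whichever of its probe sets has the highest mean log2 signal, and a gene is measured where that probe set reaches the floor on at least 1 array, which held for 11135 genes and for all 10 members. The log2 ratio is 4T1-3R_L over parental, and a fold against a signal under the floor is given as at least that fold.

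The markers of the labelled cell type were present, and those of liver and stroma were mostly under the floor. All 7 epithelial markers were above it on both arrays, but their summed signal was 76793 on the parental and 53014 on the 4T1-3R_L array. Krt8, at 18784 and 21891, was the only 1 of the 7 with a positive log2 ratio, and their median was -0.99. The 3 lower by 2-fold or more were Cldn7 (5432 and 151), Krt14 (5324 and 171) and Epcam. Epcam read 7536 and 1776, but had a log2 ratio of -0.59 by another probe set. Neither array reached the floor for any of 8 hepatocyte markers, 6 endothelial markers and the 4 lymphocyte or neutrophil markers with a probe set, nor for 7 of 8 fibroblast or stellate markers. The eighth, Des, was at 106.4 and 15.9. Of 7 macrophage markers 5 were under the floor on both, while Csf1r was at 1026 on the parental and 88.1 on the 4T1-3R_L array and Cd68 at 388 and 374. Added control RNAs differed between the arrays. The 15 hybridisation control probe sets above the floor had log2 ratios of 0.33 to 0.82, and the 14 such poly-A controls 0.57 to 1.51. The ratio of 3' to 5' signal, a sign of RNA quality, was 1.22 on the parental and 1.59 on the 4T1-3R_L array for Actb and 0.789 and 1.02 for Gapdh. The mean log2 ratio of the poly-A controls (1.16) was larger than that of the hybridisation controls (0.56). Values with the arrays scaled to the hybridisation controls are given beside the results. Scaling to the poly-A controls was not run. It would lower the members' ratios further, and how many would stay 2-fold higher was not tested. The part of the difference in 3' to 5' ratio was not tested either.

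In 4T1-3R_L cells 6 of the 10 members were higher by 2-fold or more, against 6.22% of measured genes. A higher signal from a culture can mean more cells with the transcript or more transcript per cell, which cannot be told apart here. None of the 10 was at least 2-fold lower, against 4.48% of measured genes, and 4 lay between. The 6 were Egr1, Egr2, Dusp1, Dusp6, Spry2 and Spry4, so each of the 3 families contributed 2 under the main setting. For Egr2 and Spry4 the parental signal was under the floor, so their ratios could only be positive. With the floor at the 60th percentile of all signals these genes were no longer 2-fold higher, and the even split over families was lost. The median log2 ratio of the 10 members was 1.41, beside -0.01 over all measured genes. When the arrays were instead scaled to the hybridisation controls, the median of all measured genes moved to -0.52, the members' median was 1.02, and the count of members at least 2-fold higher was again 6, against 2.31% of genes. Under that scaling Dusp4 and Spry1 turned to the lower side (log2 ratios of -0.16 and -0.14) and Egr3 became at least 2-fold lower (-1.13), as did 19.5% of measured genes.

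**Figure D1:**
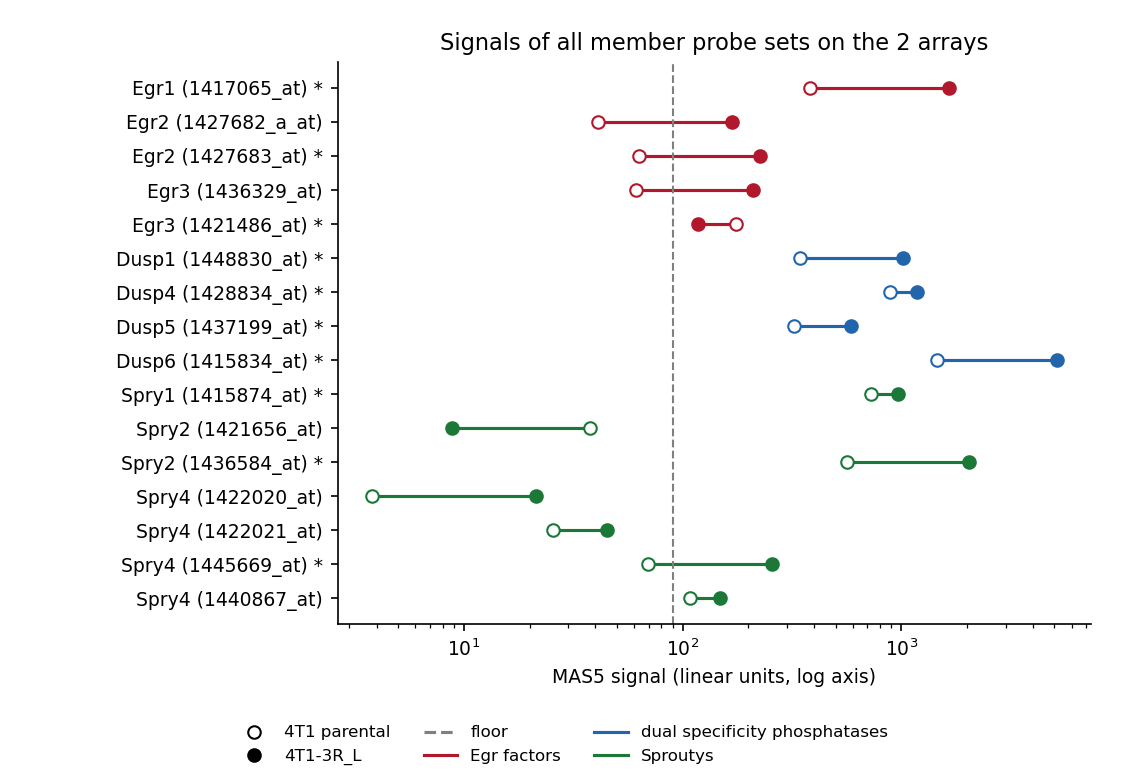
Signal of all 16 member probe sets (horizontal log axis, MAS5 units) on the parental array (open circles) and the 4T1-3R_L array (filled circles), with the floor of 90.6 as a dashed line and an asterisk on the probe set that represents each gene. Of the 13 probe sets that reach the floor on at least 1 array, 12 have the 4T1-3R_L signal to the right. The exception is 1421486_at of Egr3. In 4 of the 13 the parental signal is under the floor, so no other direction was possible. The other 3 probe sets, of Spry2 and Spry4, lie left of the floor on both arrays, where signals have no order.

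Egr1 encodes a zinc finger factor widely used as a readout of recent ERK activity. Its only probe set (1417065_at) read 381 on the parental and 1659 on the 4T1-3R_L array, 4.35-fold higher (log2 ratio 2.12). This was the largest ratio among the 8 members above the floor on both arrays, and 0.907% of measured genes had a log2 ratio as high or higher. The log2 ratio of Egr1 lay between 1.56 and 2.18 under the 10 alternative settings. Moving the floor to another percentile or choosing probe sets otherwise left it at 2.12, and could not have changed it with 1 probe set above each floor.

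Egr2, a related factor known for its roles in hindbrain, myelin and lymphocyte development, reached the floor in 4T1-3R_L cells alone. Its representing probe set (1427683_at) read 63.5, under the floor, for parental RNA and 226 for 4T1-3R_L RNA, at least 2.50-fold higher. The second probe set (1427682_a_at) read 40.9 and 168, at least 1.86-fold higher. For the representing probe set 3.42% of measured genes had a log2 ratio as high or higher. Both probe sets thus went from under the floor to above it. Each was measured through the 4T1-3R_L array alone, so its ratio could only be positive and the shared direction is no check. With the floor at the 40th percentile of all signals (56.4) the parental signal counted as measured and the log2 ratio of Egr2 was 1.83, whereas with the floor at the 60th percentile (168.8) it was 0.42 and no longer 2-fold.

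Egr3, which shares the zinc finger domain of the other Egr factors, had no settled direction. Probe set 1421486_at read 176 on the parental and 118 on the 4T1-3R_L array, 1.49-fold lower. Probe set 1436329_at read 61.1, under the floor, and 210, at least 2.31-fold higher. The first stands for the gene because its mean log2 signal is the higher. Taking the median of both probe sets turned the log2 ratio of Egr3 from -0.58 to 0.32. With the floor at the 60th percentile 1436329_at stands for the gene instead, and the log2 ratio was 0.31.

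Among the phosphatases, Dusp6, a cytoplasmic enzyme that acts on ERK, differed most. Dusp6 (1415834_at) read 1454 on the parental and 5141 on the 4T1-3R_L array, 3.54-fold higher (log2 ratio 1.82), and 1.37% of measured genes had a log2 ratio as high or higher. Dusp1, a nuclear phosphatase that also acts on the stress kinases p38 and JNK, read 345 and 1015 (1448830_at), 2.95-fold higher (log2 ratio 1.56), which 2.16% of measured genes reached. Dusp6 and Dusp1 were above the floor on both arrays, so neither fold is a bound. Under hybridisation control scaling Dusp1 stayed just past 2-fold, at a log2 ratio of 1.002.

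Dusp5, a nuclear phosphatase selective for ERK (1437199_at), read 323 on the parental and 589 on the 4T1-3R_L array, 1.82-fold higher and so short of 2-fold, with 8.34% of measured genes as high or higher. Dusp4, another nuclear phosphatase (1428834_at), read 891 and 1177, 1.32-fold higher. These smaller differences were in the direction of Dusp6 and Dusp1, except that Dusp4 turned lower with the hybridisation control scaling. The 4 phosphatases each have 1 probe set here, so none has a second probe set as a check.

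Among the Sproutys, Spry2, an inhibitor of receptor tyrosine kinase signalling, had the largest ratio with both signals above the floor. Its probe set 1436584_at read 567 on the parental and 2031 on the 4T1-3R_L array, 3.58-fold higher (log2 ratio 1.84), and 1.34% of measured genes had a log2 ratio as high or higher. The other Spry2 probe set (1421656_at) read 37.8 and 8.8, under the floor on both arrays, and gives no fold. Spry2 therefore rests on 1 probe set.

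Spry4 has 4 probe sets that did not give 1 size. Probe set 1445669_at read 69.8, under the floor, and 256, at least 2.82-fold higher, a ratio that 2.48% of measured genes reached, and represents the gene. Probe set 1440867_at read 107.7 and 147.6, only 1.37-fold higher. The remaining ones, 1422020_at (3.8 and 21.5) and 1422021_at (25.5 and 45), were under the floor on both arrays. Both probe sets that reached the floor were higher in 4T1-3R_L cells. For 1445669_at, under the floor on the parental array, no other direction was possible. The 2-fold difference of Spry4 was lost with the median over probe sets (log2 ratio 0.98) and with the floor at the 60th percentile (0.60).

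Spry1 (1415874_at) read 725 on the parental and 965 on the 4T1-3R_L array, 1.33-fold higher. About as many measured genes (22.9%) had a log2 ratio as high or higher as for Dusp4 (23.4%). Under the main setting each family thus held 2 members at least 2-fold higher and at least 1 member that was not. For the Egr factors and the Sproutys 1 of the 2, Egr2 or Spry4, is a bound that depends on the floor.

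Counted by probe set, 13 of the 16 reached the floor on at least 1 array. Of these 13, 7 were at least 2-fold higher, against 5.68% of measured single-gene probe sets, and 0 were at least 2-fold lower, against 4.74%. All but 1 of the 13 had a positive log2 ratio, the exception being 1421486_at of Egr3. In 4 of the 13 the parental signal was under the floor, so their ratios are bounds that move with the floor. Their sign was thereby fixed as positive, and only the other 9, above the floor on both arrays, could have had either sign.

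**Figure D2:**
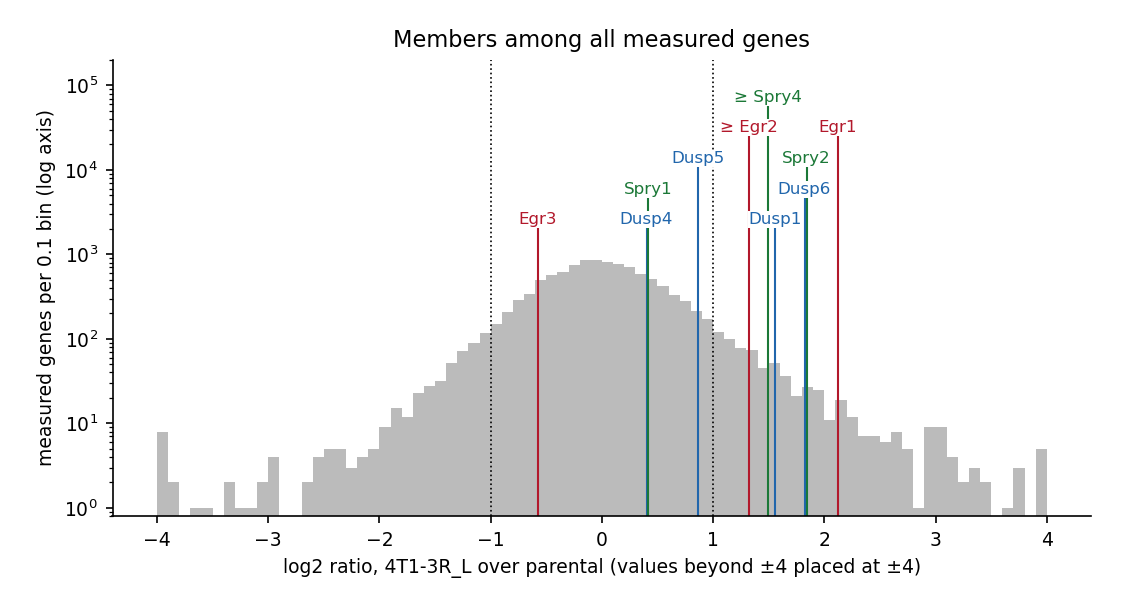
Histogram of the log2 ratio (4T1-3R_L over parental) of 11135 measured genes in bins of 0.1 on a log count axis, with vertical lines for the 10 members and dotted lines at 2-fold. From Egr2 (at least 1.32) to Egr1 (2.12), 6 members lie right of the upper dotted line, Dusp4, Spry1 and Dusp5 lie between 0.40 and 0.87, and Egr3 lies at -0.58; with hybridisation control scaling Dusp4 and Spry1 fall just below 0.

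**Figure D3:**
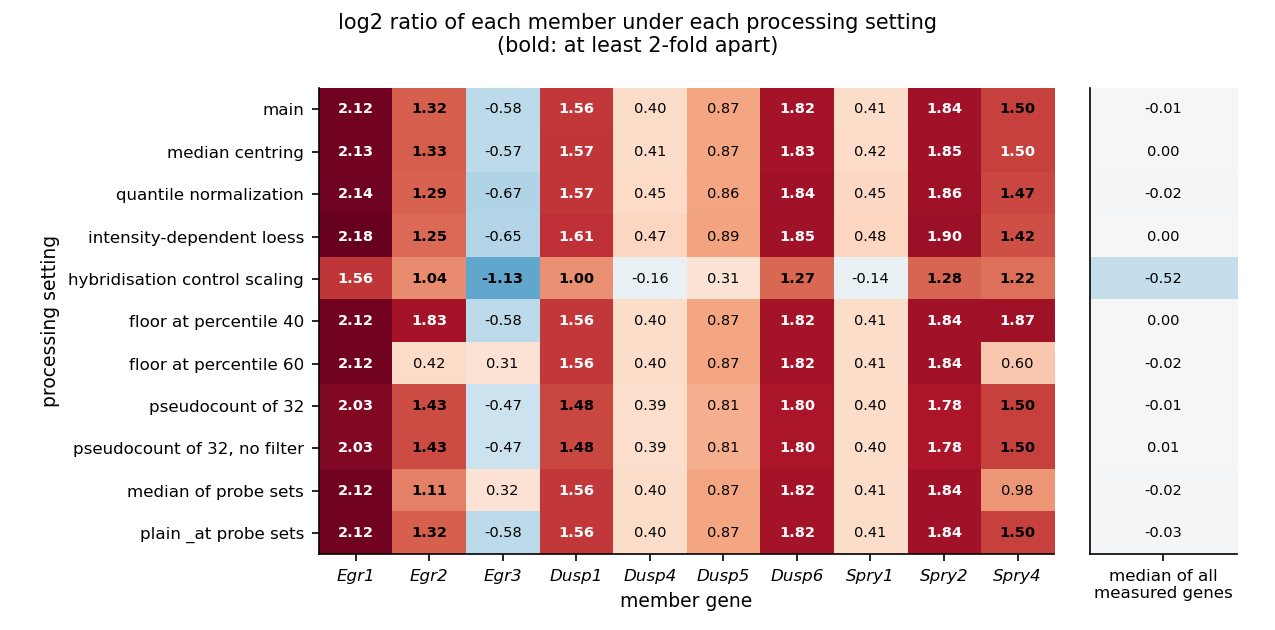
The log2 ratio (4T1-3R_L over parental, by colour and number) of each member gene (columns) under the main and 10 alternative settings (lines), with the median of all measured genes at the right; bold marks at least 2-fold. Egr1, Dusp1, Dusp6 and Spry2 are at least 2-fold higher under all 10 alternatives, Egr2 under 9 and Spry4 under 8. Egr3 changes sign with the floor at the 60th percentile, where its other probe set represents it, and with the median of probe sets. Dusp4 and Spry1 change sign with hybridisation control scaling.

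The other genes of the pathway were taken as 11 lists of 149 genes, of which 134 had a probe set and 122 were measured; paired values below are the parental and then the 4T1-3R_L signal. Of the 122, 17 (13.9%) were higher and 11 (9.02%) lower by 2-fold or more, beside 6.22% and 4.48% of all measured genes, and their median log2 ratio was 0.16. With hybridisation control scaling the balance turned, to 8 higher and 23 lower, beside 2.31% and 19.5% of all measured genes. The wider pathway thus held genes on both sides of 2-fold.

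Upstream of ERK, 3 of 13 measured growth factor ligands and receptors were at least 2-fold higher and 1 was lower, with a median log2 ratio of 0.52. The higher genes were the receptor Pdgfra (676 and 2549, 3.77-fold) and the EGF receptor ligands Hbegf (1451 and 4116, 2.84-fold) and Tgfa (828 and 1815, 2.19-fold, but a log2 ratio of -0.62 by another probe set), and the lower was the receptor Erbb3 (2008 and 686, 2.93-fold). Of 14 measured adaptors and RAS, RAF, MEK and ERK genes, 1 was at least 2-fold apart, the docking protein Gab1 (387 and 172, 2.25-fold lower), and the median log2 ratio was -0.03. Of 5 measured kinases that ERK activates, the histone kinase Rps6ka5 was 2.61-fold higher (289 and 753), and Rps6ka6 of the RSK family was 8.97-fold lower (2312 and 258, with a log2 ratio of -3.17, but -1.21 by another probe set). None of 7 measured genes for other MAP kinases was 2-fold apart, and their median log2 ratio was -0.30.

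The list of serum response factor, its cofactors, ETS factors and Creb1 had a median log2 ratio of 0.05 over 11 measured genes, near the median gene. Srf, serum response factor itself, stood at 0.48, but at -0.39 by another probe set, and the 1 gene at least 2-fold apart was Ets2 (3234 and 1183, 2.73-fold lower, but a log2 ratio of -0.75 by another probe set). Of the Egr partners, Nab2, a corepressor that binds Egr proteins and is induced by them, read 461 and 842, 1.83-fold higher, while Nab1 read 4419 and 5122 (log2 ratio 0.21, but -0.58 by another probe set) and Egr4 was under the floor on both arrays (50.5 and 18.9). Of 27 measured other immediate early genes, 7 were higher and 3 lower by 2-fold or more, with a median log2 ratio of 0.27. Those largest in size were the AP-1 subunit Fosl1 (2.36, or 1.49 by another probe set), the nuclear receptor Nr4a2 (1.64), the stress-induced gene Gadd45b (-1.58) and Jun (1.57). Of 10 measured other ERK output genes, 1 was at least 2-fold higher, again Fosl1, and 0 were lower, with a median of 0.50.

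The member phosphatases and inhibitors can be set beside their relatives. Among 13 measured other dual specificity phosphatases the median log2 ratio was -0.36, beside 1.21 for the 4 member phosphatases, and 3 of the 13 had a positive ratio. That list was drawn by enzyme class and not by action on ERK, so the 2 medians do not compare like with like. Dusp10, which acts mainly on p38 and JNK, was 2.29-fold higher (374 and 856, with a log2 ratio of 0.99 by another probe set). Dusp8 was at least 2.96-fold lower (268 and 53.0), but stood at 0.32 (log2 ratio) by another probe set. Dusp9 fell just short of 2-fold lower (698 and 349, 1.999-fold), with a log2 ratio of -1.40 by another probe set. Of 16 measured other feedback and RAS inhibitors, 3 were at least 2-fold higher and 1 lower, with a median of 0.42, beside 1.497 for the 3 Sproutys. Il17rd, a membrane inhibitor of fibroblast growth factor signalling, was at least 5.22-fold higher (81.3 and 473), but another probe set put it at 0.08 (log2 ratio). The docking protein Dok1 was 2.25-fold and the Sprouty-related Spred3 2.21-fold higher, and Dok2 was at least 2.21-fold lower.

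Genes described as EGR1 targets lay on both sides. Of 9 measured, 2 were higher and 2 lower by 2-fold or more, and the median log2 ratio was 0.74. They were the heparanase Hpse (76.7 and 539, at least 5.95-fold higher), the adhesion molecule Icam1 (234 and 823, 3.51-fold higher), the growth factor Pdgfb (2838 and 761, 3.73-fold lower) and the matrix protein Thbs1 (4087 and 1140, 3.59-fold lower).

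Under hybridisation control scaling the medians of 5 of these lists turned from above 0 to below it while staying above the median gene (-0.52). They were the ligands and receptors (-0.03), the Egr partners (-0.02), the immediate early genes (-0.28), the ERK output genes (-0.05) and the feedback and RAS inhibitors (-0.13). The list of serum response and ETS factors also turned, to -0.51, which is close to the median gene. The medians of the kinases activated by ERK (0.05) and the EGR1 targets (0.18) stayed above 0.

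**Figure D4:**
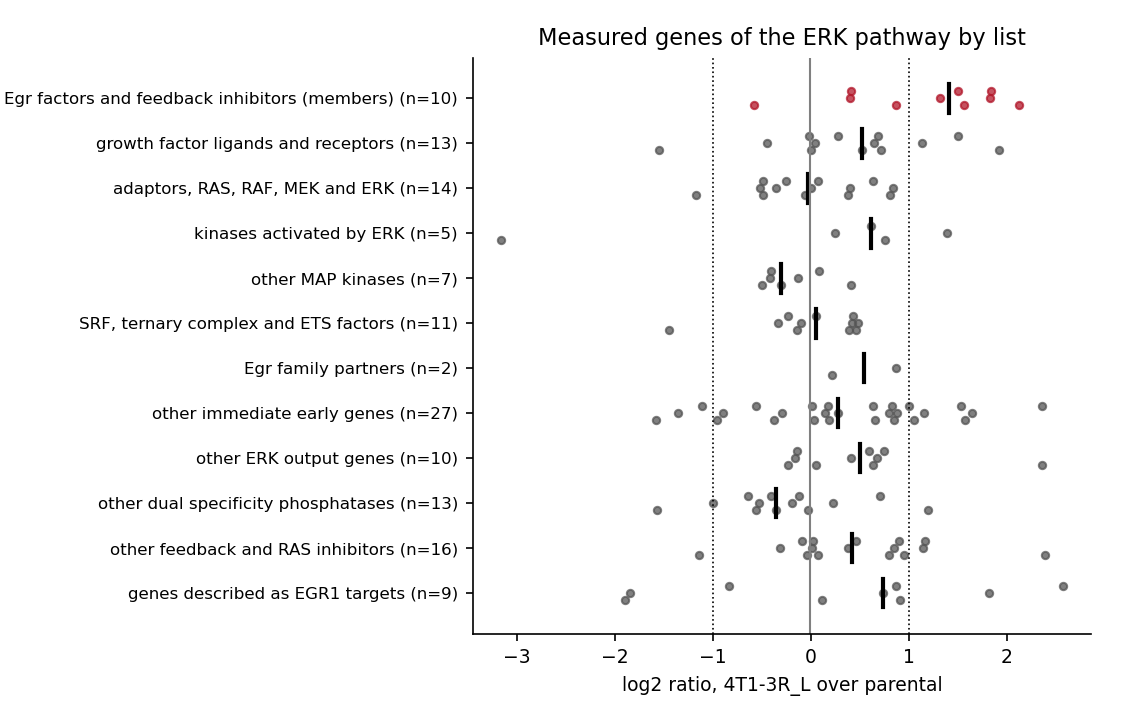
Each point is the log2 ratio (4T1-3R_L over parental, horizontal axis) of a measured gene, by list, with the list median as a black bar, the median of all measured genes as a grey line and dotted lines at 2-fold. Under the main setting shown, the median of the 10 members (1.41) lies right of all 11 pathway list medians, which run from -0.36 to 0.74. With the floor at the 60th percentile the members' median (0.733) is no longer above that of the EGR1 targets (0.736). With hybridisation control scaling the medians of 6 of these 11 lists drop from above to below 0.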

How the data were processed

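Total RNA from 1 culture per group was labelled with biotin and hybridised to Affymetrix arrays, per the labels' protocols. The deposited values are probe set intensities made by the authors with MAS5, as the submitters' processing notes name it. The sources used here do not state its version, scaling target or detection calls. Trimming 2% at each end left a mean of 500.003 on both arrays. Of 45101 probe sets, 64 are controls. Genes were named from the platform annotation, and all 10 members' Entrez identifiers were found in the RefSeq table of GRCm38.p6.

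The floor (50th percentile, 90.6), the representing probe set, and the 2-fold threshold are as given above. Loess used a span of 0.4. Alternatives changed the scaling (median centring, quantile, loess, hybridisation controls), the floor (40th or 60th percentile, or a pseudocount of 32 with or without the filter on measured genes) or the probe set (median, or plain _at names). From each pathway list at most the 4 genes farthest from a ratio of 0 on the log2 scale were named, plus those behind a count of 5 or fewer. Members and lists were chosen with earlier results of these data known. Computation used python 3.11.15, pandas 2.3.3 and statsmodels 0.14.6, and was tested on simulated data.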

Additional observations from a re-analysis of the deposited data

How the results depend on the processing

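The count of members at least 2-fold higher was 6 and lay between 4 and 6 under the 10 alternatives; the 4 came with the floor at the 60th percentile, where Egr2 and Spry4 dropped out. At that floor the members' median log2 ratio was 0.73, beside 1.41 under the main setting, and was no longer above that of the EGR1 targets (0.74). Hybridisation control scaling gave 1 member at least 2-fold lower in place of 0, and 8 pathway genes higher and 23 lower in place of 17 and 11; over all measured genes it gave 2.31% higher and 19.5% lower, in place of 6.22% and 4.48%. No paired analysis was possible because each group has 1 array. Low signals limit Egr2, Egr3 and Spry4 most, since their parental or 4T1-3R_L signals lie near the floor, and with 1 array per group no difference can be set against a spread between cultures.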

Other observations

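The members sit in different neighbourhoods of the genome, and the measured genes on either side of them were mostly not 2-fold apart. Of 20 such neighbours in the gene order of the RefSeq table, 2 were higher in 4T1-3R_L cells by 2-fold or more, against 6.22% of measured genes, and 0 were lower, against 4.48%; their median log2 ratio was 0.17. Both exceptions, named here after their values were seen, lie next to a member. Kitl, which encodes the ligand of the receptor kinase Kit, follows Dusp6 and read 355 on the parental and 3233 on the 4T1-3R_L array, 9.10-fold higher, or a log2 ratio of 3.19, and 2.28 by another probe set. Ankrd50 follows Spry1 and read 1379 and 4110, 2.98-fold higher. The neighbours of Egr1, Kdm3b and Etf1, had log2 ratios of -0.07 and -0.76, and those of Dusp1, Neurl1b and Ergic1, had 0.06 and 0.27.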
